A study of Mus musculus with 8 samples.

Results

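The genes described here are 7 components of plasminogen activation and of the tissue factor pathway: Plau, Plat, Plaur, Serpine2, F3, Tfpi and Thbd. They were chosen by gene name, and each name matched 1 of the 56030 rows of the table, 55487 of which carry a gene name. RNA was sequenced from crypt cells of the ileum, the epithelium of the pits between intestinal villi, taken from C57BL/6 mice. One group received CPT-11 (irinotecan, which esterases turn into an inhibitor of topoisomerase I) at 20 mg/kg for 7 days and the other received vehicle, with 4 libraries per group. Crypts were freed with EDTA and then trypsinised, without a sort, so the libraries can hold other cells of the mucosa. The labels state neither age nor sex. Whether each library is a separate mouse is not stated, so p-values measure the spread between libraries, which may in part be technical.

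Plasminogen is a circulating zymogen that is cut to plasmin, a protease that dissolves fibrin and degrades pericellular matrix. Urokinase (Plau) and tissue-type plasminogen activator (Plat) make this cut, the urokinase receptor (Plaur) holds urokinase at the cell surface, and serpins such as protease nexin-1 (Serpine2) block the activators. Tissue factor (F3) is the membrane receptor for factor VII that starts coagulation, tissue factor pathway inhibitor (Tfpi) stops the complex it forms, and thrombomodulin (Thbd) turns thrombin from a clotting enzyme into an activator of the anticoagulant protein C. In the gut, epithelial expression of the urokinase receptor is known from injured and migrating epithelium, while Plat and Thbd are best known from endothelium.

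With CPT-11, Plaur was the member that passed the test across all genes: it rose 2.93-fold and all 4 CPT-11 libraries lay above all 4 vehicle libraries. Plat also had no overlap between the groups, at a fitted 4.19-fold difference, but with few counts, and it did not pass (adjusted p = 0.0681). F3 stood higher in 3 of 4 CPT-11 libraries and did not pass (adjusted p = 0.124), and Tfpi, the most abundant member, differed by less than the spread between libraries. Plau, Serpine2 and Thbd had too few counts for the expression filter (a count of about 10 in at least 4 libraries and 15 in total). Thus 4 of the 7 members were tested, 1 was called higher and 0 lower. Among all 14011 genes tested, 2.98% were called higher and 2.52% lower at an adjusted p below 0.05 (edgeR's quasi-likelihood F test with Benjamini-Hochberg adjustment across the tested genes), 5.5% in all. By the same test, 3442 of the 14011 had an unadjusted p below 0.05. Counts of list genes at an unadjusted p below 0.05, given further on, are to be read beside that number.

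Total counts per library lay between 20790164 and 23479121. CPT-11 replicate 2 stood apart: genes with a listed length over 4000 bases took 9.33% of its counts, against 12.3% in CPT-11 replicate 4 and 14.9% to 18.2% in the other libraries. Its Spearman rho with the others of its group was 0.931 to 0.962 across the tested genes, which are not independent replicates. Results are therefore also given without it where that changes a call. Of the 10 epithelial markers checked, all 10 were tested and 0 differed by this test, with 2 at an unadjusted p below 0.05 and 1 called by DESeq2, and Epcam, an epithelial adhesion molecule, stood at 1272 to 2013 CPM. CPM are counts per 1000000 counts of the library size after TMM scaling (trimmed mean of M-values).

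Plaur encodes a receptor that is tethered to the membrane by a glycolipid anchor. The gene lies on chromosome 7, 24462484 to 24475968 on the plus strand of GRCm38, and GENCODE M21 overlaps it with no other gene. In vehicle replicates 1 to 4 it stood at 2.83, 2.98, 2.63 and 2.09 CPM. In CPT-11 replicates 1 to 4 it stood at 9.35, 5.12, 6.95 and 9.49 CPM. The lowest CPT-11 library, replicate 2, was above the highest vehicle library. The means were 2.63 ± 0.391 and 7.73 ± 2.10 CPM (SD, n = 4 each), on 49 to 206 counts per library. The log2 fold change was 1.55 ± 0.24 (SE, edgeR adjusted p = 0.00743). Plaur was called in all 16 alternative fits, with log2 fold changes of 1.44 to 1.71 and adjusted p up to 0.0372. Without CPT-11 replicate 2 its log2 fold change was 1.71 (edgeR adjusted p = 0.000733). Groups did not overlap in this direction, CPT-11 above vehicle, for 8.41% of all genes tested, and in the other direction for 10.1%.

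**Figure D1:**
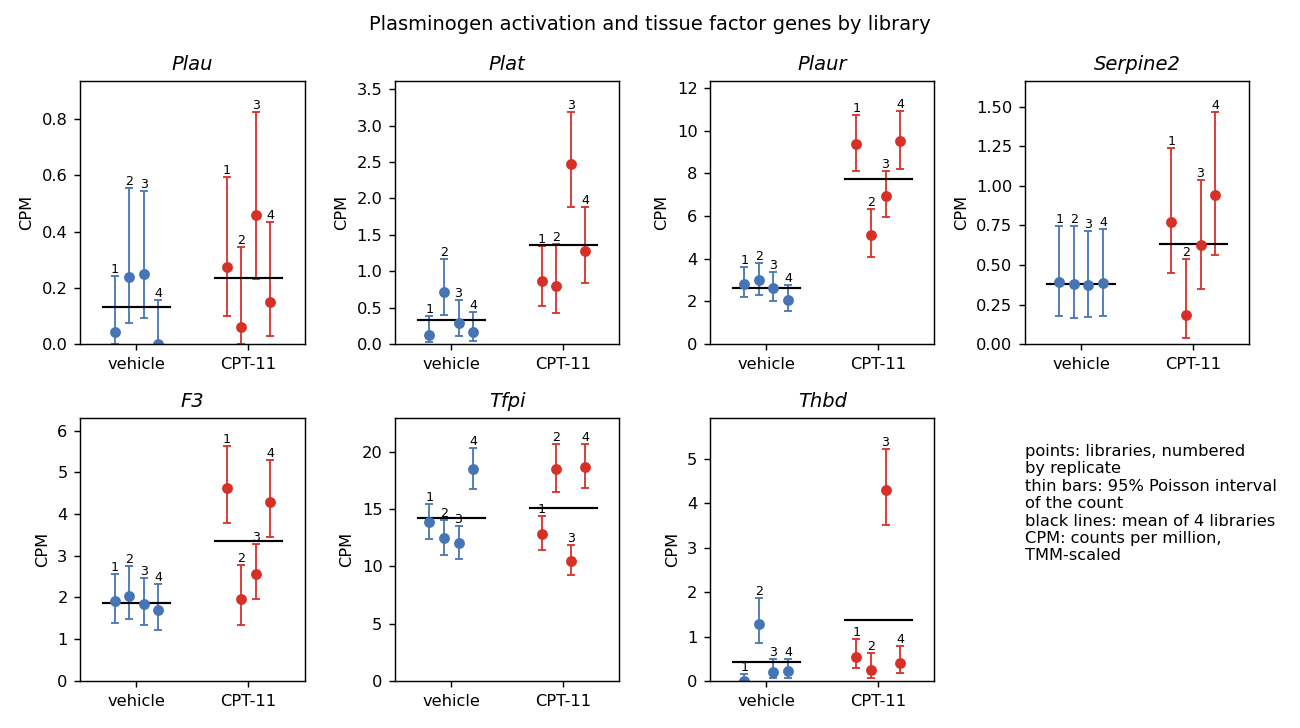
Level of each of the 7 genes in each library, in CPM, with 4 vehicle libraries (blue) and 4 CPT-11 libraries (red) numbered by replicate, 95% Poisson intervals of the counts as thin bars and group means as black lines. Plaur and Plat show no overlap between groups, F3 is high in CPT-11 replicates 1 and 4, and Thbd is high in CPT-11 replicate 3 alone of its group.

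Shown here are promoters of Plaur and F3, whose CPT-11 values were both lowest in replicate 2 and highest in replicates 1 and 4. Both have promoter entries in the RefSeq table (GRCm38.p6). Serpine2, with the same libraries lowest and highest (0.772, 0.185, 0.628 and 0.939 CPM in CPT-11 replicates 1 to 4), also has an entry. Its window holds no match to the motif marked below and is not printed. Of the 7 members 4 have such an entry. The lines give the 250 bases before the RefSeq start of each gene, 5′ to 3′ on the plus strand, with matches to the AP-1 motif TGANTCA in capitals. AP-1 is the dimer of Jun and Fos family proteins.
Plaur, chr7:24462233-24462482: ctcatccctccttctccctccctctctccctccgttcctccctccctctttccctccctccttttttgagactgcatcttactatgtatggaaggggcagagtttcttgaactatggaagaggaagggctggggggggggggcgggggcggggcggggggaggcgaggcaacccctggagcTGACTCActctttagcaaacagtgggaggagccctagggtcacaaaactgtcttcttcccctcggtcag
F3, chr3:121723287-121723536: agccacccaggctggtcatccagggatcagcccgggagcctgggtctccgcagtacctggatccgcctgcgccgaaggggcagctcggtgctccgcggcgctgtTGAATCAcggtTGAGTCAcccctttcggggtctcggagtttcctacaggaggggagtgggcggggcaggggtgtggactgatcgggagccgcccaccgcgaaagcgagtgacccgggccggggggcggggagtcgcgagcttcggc
The Plaur window holds 1 match, TGACTCA, whose first base lies 69 bases before the start. The F3 window holds 2, TGAATCA and TGAGTCA, starting 146 and 135 bases before it. TGANTCA reads the same on both strands, apart from the open base, and 7.81% of the 32851 promoter windows of 300 bases in that table hold it (250 bases before and 50 after the start). The GC box GGGCGG, searched on both strands, had 3 matches in each of both windows and is found in 35.7% of all. The windows of Serpine2 and Tfpi hold no TGANTCA. These are letter matches, and binding was not measured.

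AP-1 subunits were measured as part of a list of genes that respond to tissue handling. Junb rose from between 57.3 and 84.1 CPM to between 108 and 130 CPM (log2 fold change 0.71 ± 0.14, edgeR adjusted p = 0.0229), and its adjusted p lay between 0.0514 and 0.0928 when CPT-11 replicate 1 or any vehicle library other than replicate 2 was left out. Jund (log2 fold change 0.72, adjusted p = 0.124), Fos (0.54, 0.317), Fosb (0.70, 0.207), Jun (0.36, 0.515) and Fosl2 (0.10, 0.771) did not pass in edgeR. Fosl1 had at most 8 counts in a library and was not tested. Among CPT-11 libraries, Fos was highest in replicate 3 (57.7 CPM) and lowest in replicate 4 (25.6 CPM), where Plaur was highest. Junb was highest in replicate 3 and lowest in replicate 1. Jun and Fosb were lowest in replicate 2, as Plaur was, but highest in replicate 3. Fosl1, on its few counts, was lowest in replicate 2 and highest in replicates 1 and 4, as Plaur was. Over that whole handling list, 4 of 16 tested genes rose and 0 fell, all 16 fold changes were positive (median 0.59, against 0.014 over all genes tested), and the summed level was 526 to 680 CPM in vehicle libraries and 731 to 1007 CPM after CPT-11. Of these 16 genes, 7 had an unadjusted p below 0.05. Besides Junb, the called genes were the heat shock genes Hspa1b (edgeR adjusted p = 0.0116) and Hspa1a (0.0183) and the transcription factor gene Egr1 (0.0493). With 1 library left out, the Egr1 call was lost in 7 of 8 fits (adjusted p up to 0.153), all but that without CPT-11 replicate 2, and the Hspa1a call in 3 of 8 (without vehicle replicate 1, 3 or 4, adjusted p up to 0.0749). Their part in the level of Plaur was not tested.

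Plat encodes the activator that binds fibrin. It lies on chromosome 8, 22757727 to 22782844, plus strand. Vehicle replicates 1 to 4 held 3, 15, 7 and 4 counts, or 0.131, 0.711, 0.292 and 0.171 CPM. CPT-11 replicates 1 to 4 held 19, 13, 59 and 26 counts, or 0.863, 0.802, 2.47 and 1.29 CPM. Every CPT-11 library was above every vehicle library, with vehicle replicate 2 close to the lowest of them. The means were 0.326 ± 0.265 and 1.35 ± 0.773 CPM (SD, n = 4 each), and the log2 fold change was 2.07 ± 0.58 (SE). The edgeR adjusted p was 0.0681, and over 15 alternatives it ranged from 0.0131 to 0.191, below 0.05 in 6 of them. Among these were the fits without vehicle replicate 2 (log2 fold change 2.74, adjusted p = 0.0446) and without CPT-11 replicate 2 (2.26, adjusted p = 0.0357). Without CPT-11 replicate 3 the log2 fold change was 1.59 (adjusted p = 0.0935).

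Plau, on chromosome 14, 20836660 to 20843385, plus strand, was near the limit of detection. Vehicle replicates 1 to 4 held 1, 5, 6 and 0 counts. CPT-11 replicates 1 to 4 held 6, 1, 11 and 3 counts. The groups overlapped, with sums of 12 and 21 counts. Its level averaged 0.133 ± 0.129 CPM in vehicle libraries and 0.236 ± 0.173 CPM after CPT-11 (SD, n = 4 each), and the 0 in vehicle replicate 4 allows up to 0.128 CPM at 3 counts, while its two-sided 95% Poisson interval reaches 0.157 CPM (counting error only in both). For the 3 members below the filter, the mean log2(CPM + 0.5) was compared by a two-sided exact permutation test over the 70 assignments of 8 libraries, which can reach p = 0.0286 at best. For Plau the CPT-11 mean was higher by 0.21 (exact permutation p = 0.400, and 0.400 adjusted over the 3 genes).

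Serpine2, on chromosome 1, 79794197 to 79861180, minus strand, had 9, 8, 9 and 9 counts in vehicle replicates 1 to 4. It had 17, 3, 15 and 19 counts in CPT-11 replicates 1 to 4. The vehicle libraries lay within 0.376 to 0.392 CPM, 3 CPT-11 libraries lay above all of them (0.628 to 0.939 CPM) and CPT-11 replicate 2 lay below all of them (0.185 CPM). The difference in mean log2(CPM + 0.5) was 0.30 (exact permutation p = 0.286, and 0.400 adjusted over the 3 genes). Without CPT-11 replicate 2 it was 0.53 (exact permutation p = 0.0286, the smallest that 35 assignments give), while edgeR, in which the gene then entered the test, gave an adjusted p of 0.108.

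The remaining plasminogen genes were given as a list of 23 others, of which 13 were tested, 1 rose and 0 fell (median log2 fold change 0.42). An unadjusted p below 0.05 was reached by 5 of the 13. Plg, which encodes plasminogen and is made mainly in liver, had 0 to 7 counts. The gene that rose was Anxa2, a phospholipid-binding protein that with S100a10 forms a cell-surface receptor for plasminogen and Plat. Anxa2 stood at 597, 734, 649 and 707 CPM in vehicle replicates 1 to 4. In CPT-11 replicates 1 to 4 it stood at 1055, 1634, 946 and 1206 CPM. The groups did not overlap (log2 fold change 0.85 ± 0.20, edgeR adjusted p = 0.0352). The Anxa2 call was lost without any 1 vehicle library and without CPT-11 replicate 1 or 4 (adjusted p 0.0631 to 0.128), and held without CPT-11 replicate 2 or 3. S100a10 went from 340 to 465 CPM with vehicle to 580 to 1425 CPM with CPT-11, the highest being replicate 2. Its log2 fold change of 1.07 ± 0.28 did not pass (edgeR adjusted p = 0.0549), but was 0.72 and passed without CPT-11 replicate 2 (0.0153). Among the other members of that list, Serping1, the C1 inhibitor, was at a log2 fold change of 1.46 (edgeR adjusted p = 0.0885), Plgrkt, a membrane receptor for plasminogen, at 0.42 (0.182) and Lrp1, the endocytic receptor that clears activator-inhibitor complexes, at -0.46 (0.235).

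**Figure D2:**
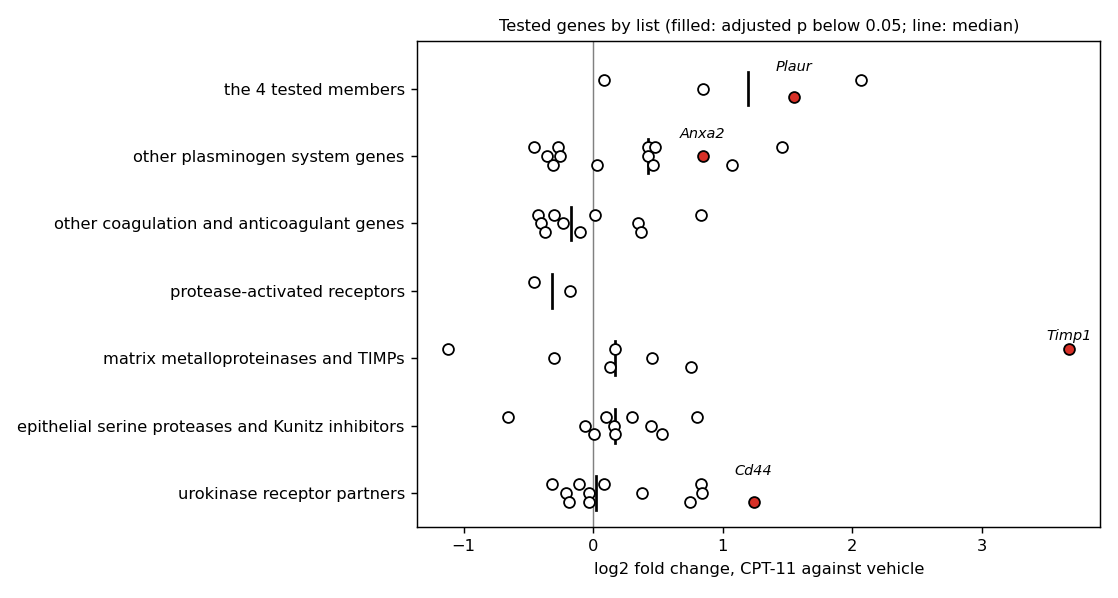
Log2 fold change (CPT-11 against vehicle) of each tested gene of the 7 genes described and of 6 further lists, with filled points for an edgeR adjusted p below 0.05 and lines at each median. The filled genes are Plaur, Anxa2, Timp1 and Cd44, all to the right of 0.

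Around the receptor, Cd44, a hyaluronan receptor, was the 1 of 12 tested urokinase receptor partners that rose (log2 fold change 1.24 ± 0.13, edgeR adjusted p = 0.00123), with 0 falling and a list median of 0.03. Of the 12, 4 had an unadjusted p below 0.05. The integrin subunit genes Itga5 (0.84, edgeR adjusted p = 0.0959) and Itgb5 (0.75, 0.111) did not pass. Of 7 tested matrix metalloproteinases and inhibitors, 2 had an unadjusted p below 0.05, 1 rose and 0 fell (median 0.17). The gene that rose was Timp1, a secreted inhibitor of matrix metalloproteinases, with 1 to 3 counts per vehicle library and 21 to 39 per CPT-11 library (edgeR adjusted p = 0.00129). Its counts summed to 9 and 110, a ratio of 13.6 per scaled library size with a 95% exact counting interval of 6.89 to 30.5. Mmp7, the Paneth cell matrilysin, ranged from 342 to 525 CPM in vehicle libraries and from 317 to 652 CPM after CPT-11 (log2 fold change 0.13, edgeR adjusted p = 0.741), and at -0.056 once CPT-11 replicate 2 was removed. Of 10 tested epithelial serine proteases and Kunitz inhibitors, 0 rose or fell in edgeR (median 0.17), with 1 at an unadjusted p below 0.05 and 0 called by DESeq2.

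F3, on chromosome 3, 121723537 to 121735048, plus strand, stood at 1.92, 2.04, 1.84 and 1.71 CPM in vehicle replicates 1 to 4. In CPT-11 replicates 1 to 4 it stood at 4.63, 1.97, 2.55 and 4.30 CPM. Replicates 1 and 4 were more than 2-fold above the vehicle mean, replicate 3 was above all vehicle libraries, and replicate 2 lay within their range. The means were 1.87 ± 0.139 and 3.36 ± 1.30 CPM (SD, n = 4 each), on 32 to 102 counts. Its log2 fold change, 0.85 ± 0.30 (SE), missed the threshold (edgeR adjusted p = 0.124, from 0.0302 to 0.262 over 16 alternatives). It passed without CPT-11 replicate 2 (1.04, adjusted p = 0.0302). Factor VII, the ligand of tissue factor, is encoded by F7, which had at most 2 counts in any library.

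Tfpi, on chromosome 2, 84432855 to 84476775, minus strand, stood at 13.9, 12.5, 12.02 and 18.5 CPM in vehicle replicates 1 to 4. In CPT-11 replicates 1 to 4 it stood at 12.9, 18.5, 10.5 and 18.7 CPM. Each group held low and high libraries, and the ranges overlapped. The means were 14.2 ± 2.97 and 15.1 ± 4.11 CPM (SD, n = 4 each), on 251 to 434 counts. The log2 fold change was 0.09 ± 0.22 (SE, edgeR adjusted p = 0.828). The difference was negative when CPT-11 replicate 2 (-0.012), replicate 4 (-0.033) or both (-0.28) were left out, and no alternative fit called it. Its relative Tfpi2 ranged from 2.51 to 4.01 CPM in vehicle libraries and from 1.72 to 3.52 CPM after CPT-11 (log2 fold change -0.37, edgeR adjusted p = 0.415).

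Thbd is a gene of 1 exon on chromosome 2, 148404466 to 148408188, minus strand. Vehicle replicates 1 to 4 held 0, 27, 5 and 5 counts. CPT-11 replicates 1 to 4 held 12, 4, 103 and 8 counts. A single library was high in each group, vehicle replicate 2 at 1.28 CPM and CPT-11 replicate 3 at 4.31 CPM, and the other 6 stood at 0 to 0.545 CPM. The difference in mean log2(CPM + 0.5) was 0.73 (exact permutation p = 0.371, and 0.400 adjusted over the 3 genes), and 0.12 without CPT-11 replicate 3. Procr, the endothelial protein C receptor that works beside thrombomodulin, had at most 12 counts, also in CPT-11 replicate 3.

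The libraries in which Thbd and Plat were high within their groups were also the libraries with most collagen transcripts. Col3a1 stood at 9.48 CPM in vehicle replicate 2, against 1.87 to 3.97 CPM in the other vehicle libraries, and at 39.1 CPM in CPT-11 replicate 3, against 5.06 to 10.4 CPM in the others of that group. Col1a2 was 3.60 CPM in vehicle replicate 2 and 14.9 CPM in CPT-11 replicate 3, the highest of each group, and so was Dcn at 24.4 and 40.8 CPM. These 3 were taken after their values were seen from a list of 12 fibroblast markers. Of its 9 tested markers, 7 were highest in these same libraries and 2 were not: Fbln1 was highest in CPT-11 replicate 2 (185 CPM, against 119 CPM in replicate 3), and Pdgfrb in vehicle replicate 4 (4.82 CPM) and CPT-11 replicate 2 (7.59 CPM). Over the 9 tested, all 9 had positive fold changes (median 1.04) and 0 were called by edgeR, with 3 at an unadjusted p below 0.05 and 0 called by DESeq2. Of all 14011 genes tested, 7188 had positive fold changes and 3442 an unadjusted p below 0.05. The summed level of the fibroblast list was 89.6 to 179 CPM in vehicle libraries and 122 to 253 CPM after CPT-11. Fbln1 made 47.2% of it in CPT-11 replicate 3 and 63.1% to 86.6% in the other libraries, while the defining markers Pdgfra and Dpt had at most 4 and 1 counts. Mesothelium, which lines the outside of the gut wall, is also known to express Thbd, and of its 4 markers 3 were tested and 0 called by edgeR or DESeq2 (1 at an unadjusted p below 0.05). They summed to 6.02 to 27.8 CPM in vehicle libraries and 12.9 to 36.8 CPM after CPT-11, again highest in vehicle replicate 2 and CPT-11 replicate 3. Some genes outside these marker sets were also highest in vehicle replicate 2 and CPT-11 replicate 3. Examples are Fos (39.3 and 57.7 CPM) and the integrin subunit gene Itgav (13.1 and 17.8 CPM). Others were not, such as Jund, which was highest in vehicle replicate 4 and CPT-11 replicate 2. The share of all tested genes with this pattern was not computed. The part of either marker set in the levels of Plat and Thbd was not tested. In bulk preparations, a change in the number of cells of a type and a change in RNA per cell cannot be told apart.

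**Figure D3:**
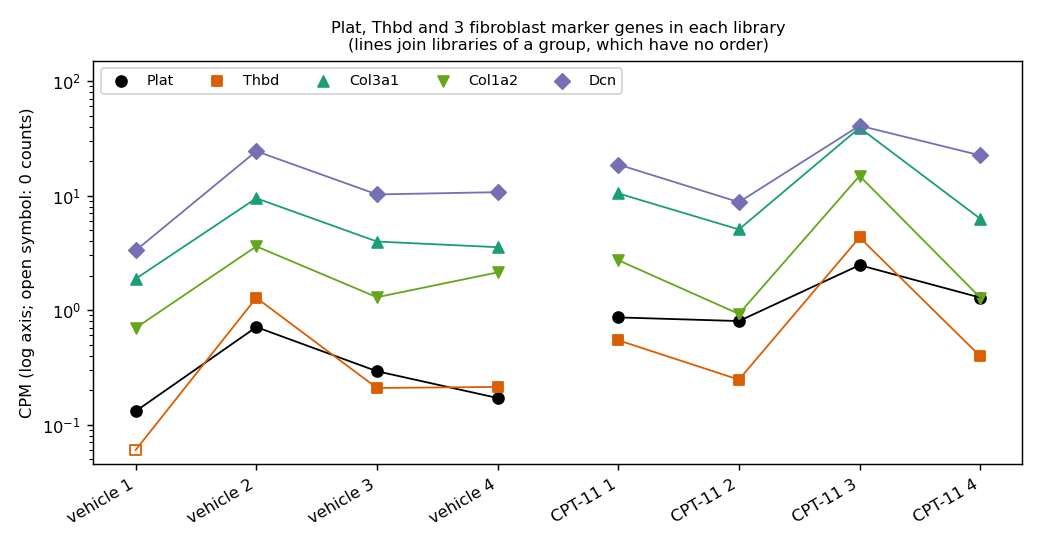
CPM of Plat, Thbd and the fibroblast marker genes Col3a1, Col1a2 and Dcn in each of the 8 libraries on a log axis, with an open symbol for 0 counts and lines that only join libraries of a group. All 5 genes are highest in vehicle replicate 2 within the vehicle group and in CPT-11 replicate 3 within the CPT-11 group.

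Markers of the cells in which these genes are otherwise known were counted in the same way. The 13 endothelial markers summed to 5.47 to 6.82 CPM in vehicle libraries and 4.72 to 6.99 CPM after CPT-11, 3 were tested and 0 called by edgeR or DESeq2 (1 at an unadjusted p below 0.05), Emcn and Flt1 were at 0 in all libraries, and Cdh5 had at most 9 counts. Of the same list, Pecam1 and Tie1 were higher with no overlap between the groups, as were Plat and 8.41% of all genes tested. Of the 3 tested, 1 had a positive fold change, Pecam1, and the median log2 fold change was -0.26. Esam was at -0.63 (edgeR adjusted p = 0.211) and Egfl7 at -0.26 (0.531). Below the filter, summed counts of Tek were 23 with vehicle and 5 with CPT-11. They were 12 and 6 for Cdh5, 7 and 2 for Eng, and 6 and 22 for Kdr. Pecam1 stood at 1.22 to 1.54 CPM in vehicle libraries and 1.77 to 2.32 CPM after CPT-11 (log2 fold change 0.56, edgeR adjusted p = 0.187). Tie1 had 2 counts over the vehicle libraries and 38 over the CPT-11 libraries, 21 of them in replicate 2, and was below the filter, but was called with no filter (edgeR adjusted p = 0.0355). Their part in the level of Plat was not tested. The 10 neutrophil markers summed to 0.521 to 0.896 and 0.802 to 1.38 CPM, with Ly6g, Ngp and Camp at 0. Of the platelet markers, Ppbp and Treml1 were at 0 and Pf4 had at most 5 counts, while Gp1bb made most of their sum, which was 188 CPM in CPT-11 replicate 2 and 40.9 to 74.3 CPM in the other libraries. Of the 7 T cell, 6 mast cell, 7 smooth muscle and 5 enteric glia markers, 7, 3, 1 and 0 were tested and 0 called by edgeR or DESeq2, with 1, 1, 0 and 0 at an unadjusted p below 0.05. The 14 markers of macrophages and dendritic cells, which also express Plaur, summed to 62.1 to 78.2 CPM in vehicle libraries and 98.2 to 115 CPM after CPT-11. Of 12 tested, 3 rose and 0 fell (median 1.03): Cd14, the lipopolysaccharide co-receptor (log2 fold change 1.32, edgeR adjusted p = 0.00658), Aif1 (2.12, 0.0229) and C1qc, a complement component (1.36, 0.0445). Of the same 12, 9 had an unadjusted p below 0.05, against 3442 of all 14011 genes tested. In 4 of the 12 every CPT-11 library lay above every vehicle library, as in 8.41% of all genes tested. With 1 library left out, the Cd14 call held in 8 of 8 fits, while Aif1 lost it in 5 (adjusted p up to 0.0843) and C1qc in 6 (up to 0.110). The count of called markers was 1 after leaving out CPT-11 replicate 1 or 4 or any vehicle library but replicate 2, and 5 without CPT-11 replicate 3. Their part in the level of Plaur was not tested.

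The other genes of coagulation were mostly low. Of 23 listed, 10 were tested and 0 rose or fell in edgeR (median log2 fold change -0.17), with 3 at an unadjusted p below 0.05 and 2 lower by DESeq2. The smallest p-values were those of Vkorc1l1, a vitamin K reductase (-0.41, edgeR adjusted p = 0.0693), and Tgm2, tissue transglutaminase (-0.42, 0.0913). Among the protease-activated receptors, 2 of 4 were tested and 0 rose or fell by edgeR or DESeq2 (0 at an unadjusted p below 0.05). F2rl1, the receptor PAR2 that trypsin and the tissue factor complex cleave, stood at 28.6 to 34.2 CPM with vehicle and at 32.2, 11.8, 40.6 and 24.97 CPM in CPT-11 replicates 1 to 4 (log2 fold change -0.18, edgeR adjusted p = 0.738), and its sign turned without replicate 2 (0.083). The thrombin receptor gene F2r was at -0.46 (adjusted p = 0.588), and 0.066 without vehicle replicate 4.

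**Figure D4:**
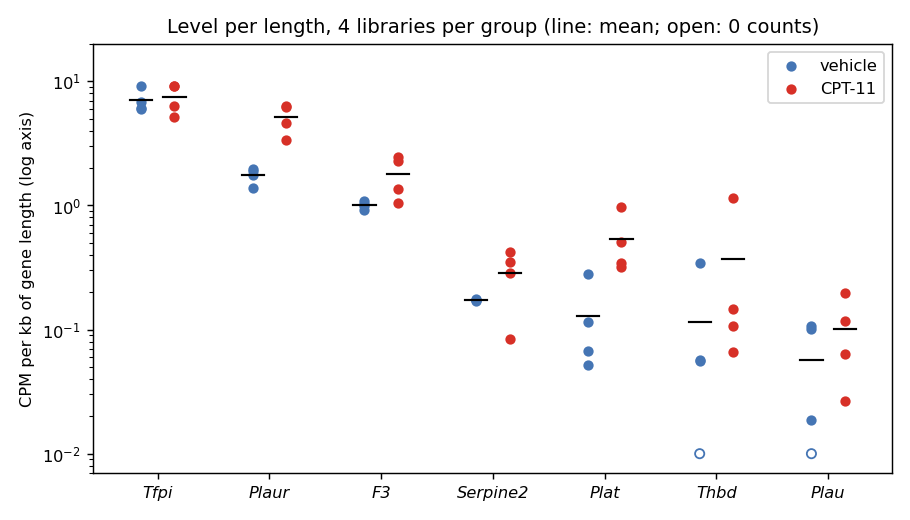
Level of each of the 7 genes per length, in CPM per kilobase of the length listed in the table, on a log axis, with points for libraries (blue vehicle, red CPT-11), open points for 0 counts and lines for means of 4. Tfpi, Plaur and F3 are the 3 highest by mean in both groups, and the ranges of the other 4 overlap with their neighbours in the order. With CPT-11 the highest Thbd library lies above the lowest F3 library.

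Levels between genes can be set side by side per length, here the deposited length. For Serpine2, Plat and Tfpi that length is 2210, 2525 and 2027 bases, against GENCODE M21 exonic lengths of 8287, 6241 and 5463 bases. For Thbd it is 3723 bases in both, so the order of the members depends on the length used. In vehicle libraries the order by mean CPM per kilobase was Tfpi (7.01 ± 1.47), Plaur (1.75 ± 0.260), F3 (1.001 ± 0.0744), Serpine2 (0.173 ± 0.00327), Plat (0.129 ± 0.105), Thbd (0.114 ± 0.155) and Plau (0.0567 ± 0.0553; SD, n = 4 each). The ranges of Tfpi, Plaur, F3 and Serpine2 were separate from one another, and those of each later pair of neighbours overlapped. With CPT-11 the order was Tfpi (7.47 ± 2.03), Plaur (5.13 ± 1.39), F3 (1.80 ± 0.695), Plat (0.537 ± 0.306), Thbd (0.369 ± 0.527), Serpine2 (0.286 ± 0.146) and Plau (0.101 ± 0.0738; SD, n = 4 each). Here the ranges of Tfpi and Plaur overlapped, and the range of Thbd (0.0663 to 1.158) reached into that of F3 (1.054 to 2.474).

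The genes whose log2(CPM + 0.5) ran most alike over the 8 libraries were named by Pearson r, as a description over points that share the group difference and the library, among 11052 tested genes with a mean log2 CPM above 1 (11053 for Plat). For Plaur these were Ces1f, a carboxylesterase (r = 0.989), Dyrk3, a kinase (0.986), and Dnaja1, a heat shock co-chaperone (0.973), and 86 genes had r above 0.9. For Plat they were Mmp15 (0.987), a membrane-bound metalloproteinase, Sparc (0.965), a matrix glycoprotein, and Serping1 (0.963), with 30 genes above 0.9. F3 ran most like Strap (0.973), Nifk (0.970) and Cdk7 (0.939), and 24 genes had r above 0.9. Tfpi ran most like Cenph (0.940), Rras2 (0.939) and Nr1h4 (0.929), with 10 genes above 0.9. Of these, Ces1f (log2 fold change 1.53, adjusted p = 0.00358), Dyrk3 (1.46, 0.00453) and Dnaja1 (0.66, 0.0259), rose in the edgeR test.

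**Figure D5:**
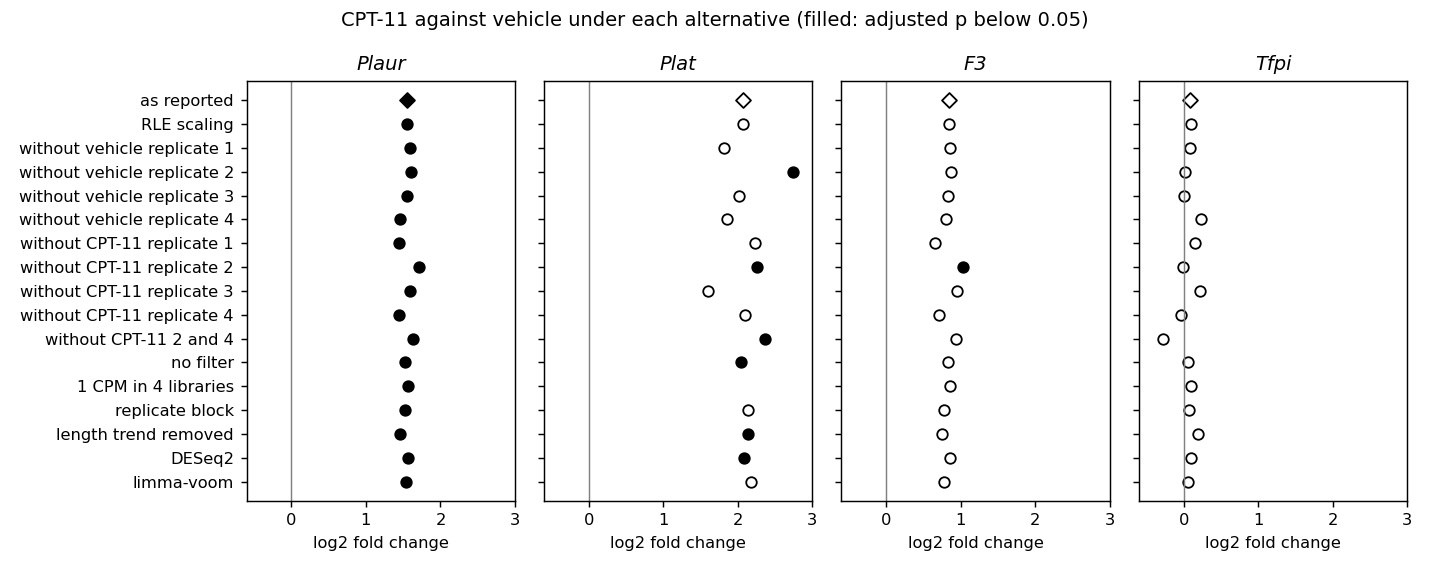
Log2 fold change of the 4 tested members as reported (diamond) and in each alternative fit (circles), filled where the adjusted p was below 0.05. Plaur is filled throughout, Plat in 6 alternatives, F3 without CPT-11 replicate 2 alone, and Tfpi nowhere. Plat could not be fitted with the filter of 1 CPM in 4 libraries, since too few of its libraries reach that level.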

How the data were processed

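RNA sequencing counts of 8 libraries, 4 per group, were used. Values in the deposited table are the authors' estimated counts, not normalized, with 10.3% to 11.1% of values per library not whole (tolerance 0). Bowtie2 2.4.1 and build GRCm38.p6 are named in the submitters' processing notes. The counting tool and its strand setting were not stated in the labels or the file. Library columns were matched to samples by title. The 543 rows without a gene name (0.325% to 0.662% of counts) were left out, and the authors' mean columns were not used. The length column, of another unit (bases), is as deposited.

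Counts were rounded and fitted over all named genes with edgeR 4.0.16 (R 4.3.3): TMM scaling, default expression filter, robust quasi-likelihood F test, two-sided, threshold 0.05 after adjustment over 14011 genes. Standard errors come from the F statistic. The fit was tested on simulated counts, which held no trend on gene length and so cannot show how the fit deals with one. Alternatives were RLE scaling, DESeq2 1.42.0, no filter, a replicate block, 1 CPM in 4 libraries, limma-voom 3.58.1, removal of each library's trend on GENCODE M21 exonic length, each library left out and CPT-11 replicates 2 and 4 left out. A pseudocount of 0.1 CPM was added after seeing the data. The members, the 18 further gene lists and the named genes (all members, up to 4 per list by smallest p, or 2 each way, 8 fixed genes, and the 3 most alike by r) were chosen with earlier results of these data known. Other genes named, such as Fos family members, F7, Tfpi2, Cdh5, Tie1, Pf4, Fbln1, Col1a2 and Dcn, were chosen after their values were seen. Coordinates are GENCODE M21 (GRCm38). Binding, protein and activity were not analysed here, and 1 gene of the lists is not reported here.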

Additional observations from a re-analysis of the deposited data

Results flagged for a closer look

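Within groups of 4, a library was marked when its gap to the nearest other, as a share of the group's range, exceeded Dixon's 95% critical value, which chance does in about 1 of 20 groups. Of 126 groups checked, 6 were marked. Thbd was marked in both groups, at 1.28 CPM in vehicle replicate 2 (others 0 to 0.213) and 4.31 CPM in CPT-11 replicate 3 (others 0.247 to 0.545). The fibroblast collagen gene Col3a1 was marked in the same CPT-11 library, at 39.1 CPM (others 5.06 to 10.4). In CPT-11 replicate 2, Plgrkt stood at 87.7 CPM (others 52.9 to 55.8) and the platelet integrin gene Itga2b at 1.42 CPM (others 0.939 to 0.963). The mast cell protease gene Mcpt2 stood at 6.23 CPM in vehicle replicate 1 (others 2.90 to 3.30).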

How the results depend on the processing

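Plaur kept its direction and its call in all 16 alternatives. The log2 fold change of Plat, not called as reported, was called with no filter (2.04), with the length trend removed (2.14), without CPT-11 replicates 2 and 4 (2.37) and by DESeq2 (2.08), and was 1.59 to 2.74 with 1 library left out. With 1 library left out, F3 ranged from 0.65 to 1.04, Tfpi from -0.033 to 0.24, Serpine2 from 0.17 to 0.53, Plau from 0.074 to 0.33 and Thbd from 0.12 to 1.10 (mean log2 CPM difference for the last 3). Tfpi was at -0.28 without CPT-11 replicates 2 and 4. A pseudocount of 0.1 CPM gave 0.58 for Plau, 0.45 for Serpine2 and 1.30 for Thbd, none past the threshold.

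Of the 7 members 1 was called higher, but 2 with no filter, the length trend removed, CPT-11 replicates 2 and 4 left out or DESeq2, and 1 to 3 with 1 library left out. Over all genes 417 were higher and 353 lower, against 627 and 572 with the length trend removed, 637 and 575 without CPT-11 replicates 2 and 4, 1045 and 839 by DESeq2, and 132 to 769 and 104 to 753 with 1 library left out. The causes were not tested. Of the 23 other plasminogen genes, 1 rose, but 2 with no filter, with the block, with the length trend removed or without CPT-11 replicate 2 or 3 or replicates 2 and 4, 3 by DESeq2 and 0 otherwise with 1 library left out. For metalloproteinases and inhibitors the count of 1 became 0 with the stricter filter, which drops Timp1, 3 without CPT-11 replicate 2, and 2 by DESeq2, with the length trend removed or without CPT-11 replicates 2 and 4. The handling list's 4 became 2 by limma-voom and 1 to 2 with CPT-11 replicate 1 or any vehicle library but replicate 2 left out, and the urokinase receptor partners' 1 became 3 by DESeq2. The 3 macrophage and dendritic cell markers became 5 by DESeq2 and 1 to 5 with 1 library left out. Counts of 0 became 1 for lower plasminogen genes (without CPT-11 replicate 3, or 2 and 4), lower coagulation genes (without CPT-11 replicate 2 or 3, and 2 by DESeq2), lower epithelial proteases (without 2 and 4), higher epithelial markers (without CPT-11 replicate 3, without 2 and 4, by DESeq2), higher fibroblast markers (without CPT-11 replicate 2, or 2 and 4) and higher endothelial markers (no filter).

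Signs turned for genes that were not called: F2r without vehicle replicate 4 (0.066; -0.77 to 0.066 with 1 library left out), F2rl1 without CPT-11 replicate 2 (0.083; -0.43 to 0.083) or 2 and 4 (0.24), Prss32 (-0.011) and Gp1bb (-0.14) without 2 and 4, Tagln without vehicle replicate 2 (0.19; -0.64 to 0.19), Lrrn4 without CPT-11 replicate 3 (-0.32; -0.32 to 0.86), Upk3b without vehicle replicate 1 (-0.044) or CPT-11 replicate 3 (-0.091; -0.091 to 0.59), and Mmp7 with the length trend removed (-0.22), without CPT-11 replicate 2 (-0.056; -0.056 to 0.28) or 2 and 4 (-0.24).

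The labels number replicates 1 to 4 in both groups. Deviations of same-numbered libraries had r = 0.31, 0.17, -0.16 and 0.12, and those of differently numbered libraries had r from -0.34 to 0.30. These values cannot decide whether the numbers mark pairs. In the fit reported, the numbers were not taken as pairs. With the replicate block, Plaur was at 1.52 (edgeR adjusted p = 0.0255), Plat at 2.13, F3 at 0.77 and Tfpi at 0.069, with the same calls for these 4 genes, and 686 genes were called, 552 of them among the 770. Plau, Serpine2 and Thbd had 37 or fewer vehicle counts in all, and Thbd also spread widely between libraries (0 to 27 counts with vehicle, 4 to 103 with CPT-11). The smallest difference that could be detected was not computed, so the lack of a call does not show that the groups were alike.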
